A study of Mus musculus with 6 samples.

Results

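The genes of the mitochondrial ribosomal proteins were described in retinal ganglion cells (RGCs), the output neurons of the retina, at 3 ages. They were chosen by symbol, as every listed gene named Mrpl or Mrps followed by a number. This gave 79 of 17027 gene symbols and 259 of 50829 isoforms. Of these symbols, 48 name proteins of the large subunit (Mrpl) and 28 name proteins of the small subunit (Mrps), and 3 are pseudogene symbols (Mrpl23-ps1, Mrpl48-ps and Mrps36-ps2) that were kept out of the counts. The animals were wild-type mice of the strain labelled C57/6NCrl, with 2 libraries each of E18 (embryonic day 18), P5 (5 days after birth) and Adult (8 weeks after birth). RGCs had been taken by panning with antibody to Thy1 after removal of macrophages and, per the sample protocol, of amacrine cells. PolyA-selected RNA was sequenced as paired reads of 100 bases, and each gene's level is the sum of its isoforms' FPKM, the fragment count scaled to transcript length and to mapped fragments. The labels do not tell if both libraries of an age derive from different animals, and the p-values therefore capture only how these samples scatter.

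The mitochondrial ribosome, or mitoribosome, translates the few messenger RNAs encoded by mitochondrial DNA, whose products are subunits of the respiratory chain and of ATP synthase. Its proteins are encoded in the nucleus, made in the cytosol and imported, and its RNAs come from mitochondrial DNA. The large subunit joins amino acids, the small subunit reads the messenger, and both hold descendants of bacterial ribosomal proteins together with proteins that mitochondria gained later. RGCs depend heavily on mitochondria along their unmyelinated axons within the eye, and inherited optic neuropathies of mitochondrial origin affect these cells.

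The libraries labelled Adult did not match their label as well as the younger ones did. The 15 listed of 16 RGC markers summed to between 378 and 563 FPKM in Adult, against 4622 to 5038 FPKM at P5 and 4673 to 5295 FPKM at E18. Nefh went the other way, with 12.7 and 11.7 FPKM in Adult, against 11.7 and 8.49 at P5 and 3.19 and 4.05 at E18. All other listed RGC markers were lower in both Adult libraries than in every younger one, Thy1 least clearly (138 and 129 FPKM in Adult, against 161 and 241 at E18). Rod markers (14 of 14 listed) summed to between 783 and 6380 FPKM in Adult, against 9.94 to 12.4 FPKM at P5 and 5.96 to 6.76 FPKM at E18, where Cnga1 was listed at 0 at both younger ages. Markers of Müller glia and astrocytes (10 of 11 listed) summed to between 1514 and 1816 FPKM in Adult, against 206 to 212 FPKM at P5 and 214 to 244 FPKM at E18. Amacrine markers (9 of 9 listed) summed to between 1096 and 1356 FPKM in Adult, against 223 to 265 FPKM at P5 and 246 to 283 FPKM at E18. The sum of bipolar markers (11 of 11 listed) did not rise, at 251 to 258 FPKM in Adult, against 275 to 280 at P5 and 355 to 359 at E18. Their median did, at 16.2 and 14.4 FPKM in Adult, against 0.152 and 0.0762 at P5. The part of these other cells in the Adult results below was not tested. In such bulk samples, fewer cells of a type and less RNA per cell cannot be told apart.

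RefSeq promoter windows (build GRCm38.p6), which run from 250 bases before a gene's start to 50 bases after it, were found for 67 of the 76 members. The upstream parts of 4 are shown because these genes had the smallest adjusted p of each subunit in Adult against P5 (Mrpl30, Mrps5) or the highest level in each subunit (Mrpl34, Mrps21). They read 5′ to 3′ in the direction of transcription, and capitals mark the letters of a motif.
Mrpl30, chr1:37890227-37890476, plus strand: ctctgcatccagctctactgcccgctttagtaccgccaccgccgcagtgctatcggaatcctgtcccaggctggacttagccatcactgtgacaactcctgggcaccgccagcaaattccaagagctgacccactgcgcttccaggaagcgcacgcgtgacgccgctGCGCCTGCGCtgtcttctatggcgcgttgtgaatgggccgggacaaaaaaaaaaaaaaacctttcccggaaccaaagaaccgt
Mrpl34, chr8:71464676-71464925, plus strand: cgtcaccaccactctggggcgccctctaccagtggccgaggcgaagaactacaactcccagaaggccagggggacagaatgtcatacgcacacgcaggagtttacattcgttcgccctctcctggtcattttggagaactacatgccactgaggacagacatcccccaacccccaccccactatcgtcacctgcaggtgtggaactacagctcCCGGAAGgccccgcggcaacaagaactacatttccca
Mrps5, chr2:127587176-127587425, plus strand: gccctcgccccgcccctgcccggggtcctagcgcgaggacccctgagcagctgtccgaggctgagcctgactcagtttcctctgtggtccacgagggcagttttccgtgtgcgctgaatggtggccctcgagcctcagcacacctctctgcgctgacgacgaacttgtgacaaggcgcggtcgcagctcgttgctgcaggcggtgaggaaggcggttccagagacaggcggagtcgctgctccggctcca
Mrps21, chr3:95871515-95871764, minus strand: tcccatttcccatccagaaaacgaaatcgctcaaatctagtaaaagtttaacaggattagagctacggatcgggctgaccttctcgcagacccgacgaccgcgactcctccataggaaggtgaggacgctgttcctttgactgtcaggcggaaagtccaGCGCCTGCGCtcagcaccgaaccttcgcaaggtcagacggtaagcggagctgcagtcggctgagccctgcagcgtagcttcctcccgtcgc

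The capitals in Mrpl30 and Mrps21 match the motif of NRF1, a factor known for activating nuclear genes of mitochondria, and those in Mrpl34 match an ETS motif of the kind bound by GABP. The letters searched on both strands of the windows of 300 bases were GCGC and TGCGC around 1 free base for NRF1, CCGGAAG for ETS, AAGATGGCG for YY1 and TATAAA for the TATA box. The ETS letters stood in 24 of 67 members (35.8%), against 19.9% of the 8999 tested genes with a window and 9.93% of all 27025 genes with one. The NRF1 letters stood in 13 members (19.4%), against 12% of tested genes and 5.19% of all genes. The YY1 letters stood in 8 members (11.9%), against 3.82% and 1.64%, and the TATA letters in 5 members (7.46%), against 8.2% and 15.7%. A match is only a run of letters and shows no bound factor. The windows of the 43 members called lower in Adult against P5 held the ETS letters in 39.5% and the NRF1 letters in 18.6%, against 30.4% and 21.7% of the 23 members that were not called.

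Many members start close to a gene on the opposite strand. Of the 75 tested members, 33 (44.0%) had the start of a protein-coding gene on the opposite strand within 1000 bases in the GRCm38 annotation, against 16.1% of 11285 tested protein-coding genes. One such pair joins both subunits: Mrpl46 (chromosome 7, minus strand) and Mrps11 (plus strand), whose RefSeq starts lie on either side of the 41 bases shown here on the plus strand because 1 stretch faces a gene of each subunit.
Mrpl46 and Mrps11, chr7:78783090-78783130: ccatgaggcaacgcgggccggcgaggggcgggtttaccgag

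Both genes of that pair had like levels at every age. Mrpl46 had 17.5 and 16.1 FPKM at E18, then 14.6 and 14.9 at P5, and 16.04 and 14.3 FPKM once Adult. Mrps11 had 16.04 and 13.5 FPKM at E18, then 15.9 and 13.9 at P5, and 14.0 and 13.0 FPKM once Adult. Neither was called in any comparison on the deposited scale, and with TPM Mrpl46 was lower in Adult against P5 (log2 change -0.67). The first exons of the pair overlap in the annotation, and exons of 23 tested members (30.7%) overlap those of another protein-coding gene, against 21.1% of all tested protein-coding genes. The sources used here do not state whether strand was used in counting, so reads in such overlaps may be split between genes.

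All but 1 of the 76 members were listed above 0 in every library. The large subunit had a median of 23.6 FPKM at E18, 25.4 FPKM at P5 and 20.2 FPKM in Adult, and the small subunit 17.8, 20.2 and 15.0 FPKM at the same ages (means of 2 libraries per gene, given in that order). Mrpl34 and Mrpl20, descendants of bacterial ribosomal proteins, and Mrpl52, found only in mitochondria, had the highest levels of the large subunit. Mrpl34 had 87.6 and 91.8 FPKM at E18, then 76.0 and 59.6 at P5, and 39.4 and 40.6 FPKM once Adult, a level that was lower at each later age in every library. Mrpl20 had 72.1 and 69.3 FPKM at E18, then 94.1 and 83.5 at P5, and 38.3 and 34.8 FPKM once Adult, so its highest libraries were those of P5. Mrpl52 had 69.6 and 84.5 FPKM at E18, then 69.8 and 61.6 at P5, and 35.0 and 31.2 FPKM once Adult. The lowest large subunit genes, Mrpl47 and Mrpl35, averaged 5.04 and 6.87 FPKM over the ages.

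Mrps21, Mrps17 and Mrps5, all with bacterial counterparts, had the highest levels of the small subunit. Mrps21 had 53.7 and 53.8 FPKM at E18, then 51.0 and 36.8 at P5, and 36.4 and 35.5 FPKM once Adult, and its P5 libraries differed widely from each other. Mrps17 had 43.7 and 44.7 FPKM at E18, then 52.9 and 38.4 at P5, and 26.6 and 27.9 FPKM once Adult. The lowest tested small subunit genes, Mrps18b and Mrps27, averaged 8.23 and 9.49 FPKM over the ages. Mrps10 was listed at 0 in 5 libraries and at 1.33 FPKM in Adult replicate 2. It was the 1 member of 76 that did not reach the mean of 1 FPKM required for testing.

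**Figure D1:**
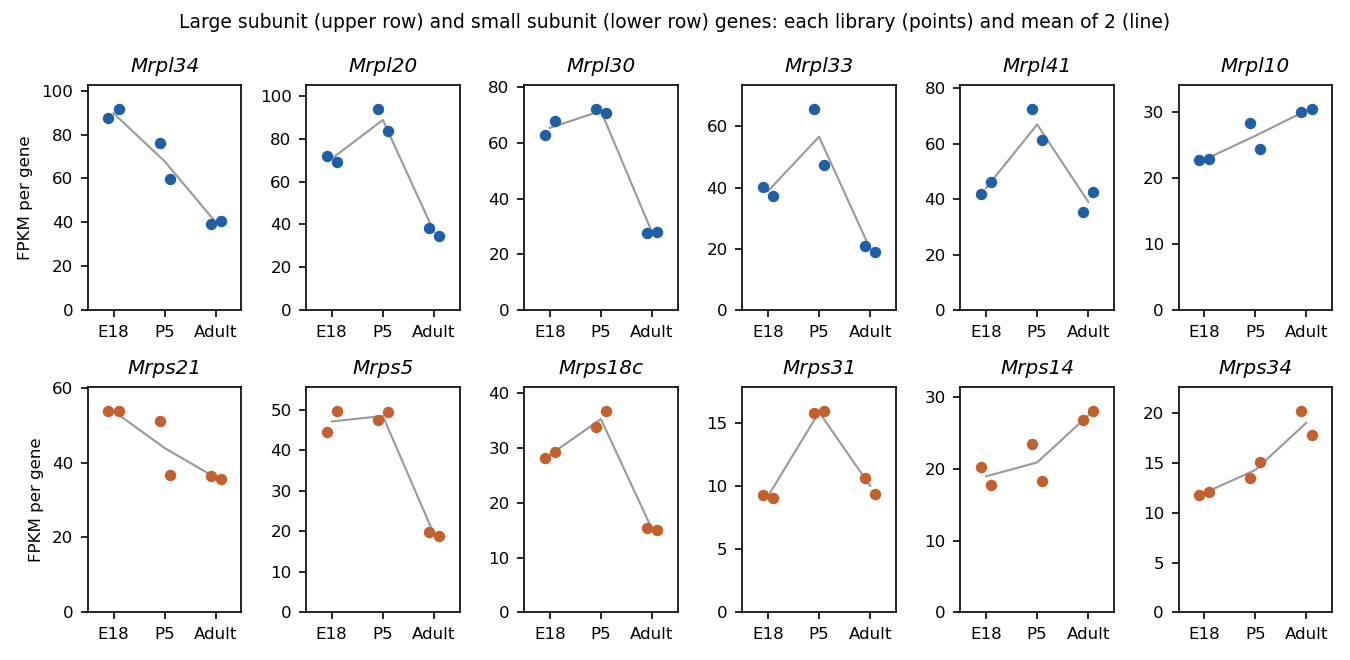
FPKM per gene (vertical axes, from 0) at E18, P5 and Adult for 6 large subunit genes (upper row) and 6 small subunit genes (lower row). Points are single libraries and lines join the means of 2; the Adult points of Mrpl30, Mrpl33, Mrps5 and Mrps18c lie below all younger libraries, and those of Mrpl10, Mrps14 and Mrps34 lie above them.

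Few mitoribosome genes were called between P5 and E18. Of 75 tested members, 2 rose, 0 fell and 73 were not called by limma at an adjusted p under 0.05. The count for higher members is 2.67% of those tested, against 5.52% of all 14390 tested genes, and 4.95% of all genes were lower. The median log2 change of FPKM + 1 was 0.07 over the large subunit and 0.10 over the small subunit, against -0.03 over all tested genes. At P5 both libraries lay above both E18 libraries in 28 members and below them in 11, against 29.0% and 34.2% of all genes. P5 library a lay above library b in 51 of 75 members, and without library a the median of the large subunit was -0.05.

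The members that rose are both specific to mitochondria. Mrps31, a small subunit protein of the head region, had 15.7 and 15.9 FPKM at P5, against 9.32 and 9.03 FPKM at E18. The P5 libraries lay well above those of E18 (log2 change 0.73, SE 0.12, limma adjusted p = 0.0215). Mrpl41, a large subunit protein, had 72.6 and 61.2 FPKM at P5, against 41.8 and 46.1 FPKM at E18 (log2 change 0.59, SE 0.14, limma adjusted p = 0.0482). Both then fell in Adult to levels near those of E18, at 10.6 and 9.39 FPKM for Mrps31 and 35.4 and 42.5 FPKM for Mrpl41. With 1 library left out in turn, the adjusted p ranged between 0.0479 and 0.181 for Mrps31 and between 0.067 and 0.288 for Mrpl41. Leaving out any library of E18 or P5 ended both calls, and leaving out either Adult library ended that of Mrpl41.

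Genes of the cytosolic ribosome, which translates nuclear messages, were called far more often at P5. Of 75 tested genes for its proteins, 0 rose and 49 fell at P5 against E18, where 4.95% of all tested genes fell. Their median log2 change was -0.51, beside 0.08 over the mitoribosome members. All 75 fell in Adult against P5 (median -1.23, beside -0.50 over the members) and in Adult against E18 (median -1.78, beside -0.46). Of all tested genes, 33.7% and 34.4% fell in these Adult comparisons. The median cytosolic gene had 9.38 and 9.63 times the FPKM of the median mitoribosome gene in the P5 libraries, against 14.2 and 14.7 times in those of E18, and 5.18 and 5.11 times in those of Adult. The difference between the families was not tested.

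In Adult against P5 most of the mitoribosome fell. Of the 48 large subunit genes 32 fell, 0 rose and 16 were not called, and of the 27 tested small subunit genes 15 fell, 1 rose and 11 were not called. The 47 that fell are 62.7% of the members tested, against 33.7% of all tested genes, while 26.2% of all genes rose. The median log2 change was -0.50 over the large subunit and -0.33 over the small subunit, both by symbol, against -0.07 over all genes. With the most abundant isoform alone the subunit medians were -0.55 and -0.52, and with classes by structure they also lay closer together. In 55 members both Adult libraries lay below both P5 libraries and in 4 both lay above, against 43.1% and 35.6% of all genes. Leaving out Adult replicate 1 left falls in 25 large and 11 small subunit genes, and leaving out replicate 2 left 24 and 12.

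The size of this fall depends on how libraries are scaled. After scaling to the sum of protein-coding genes, the median of all genes moved to 0.20 and 20 large and 8 small subunit genes fell, while 6 and 3 rose. Of all 14390 tested genes, 3356 fell and 5270 rose on that scale. After scaling to TPM, in which every library has the same total, the median of all genes moved to -0.72 and 45 large and 23 small subunit genes fell, with none higher. Most other genes fell on the TPM scale too, with 8595 of all 14390 tested genes lower and 1715 higher. Relative to the median of all genes, the large subunit changed by between -0.38 and -0.48 and the small subunit by between -0.22 and -0.34 over the deposited FPKM and 4 other scalings. With only genes of at least 5 FPKM on average (9976 genes), these values were -0.30 and -0.14. Genes of higher level tended to have lower changes: the rank correlation of change with level was -0.27 over all tested genes and -0.34 over the members. Of the 47 genes called lower, 26 were called under every scaling and with each library left out, 20 of the large subunit and 6 of the small.

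**Figure D2:**
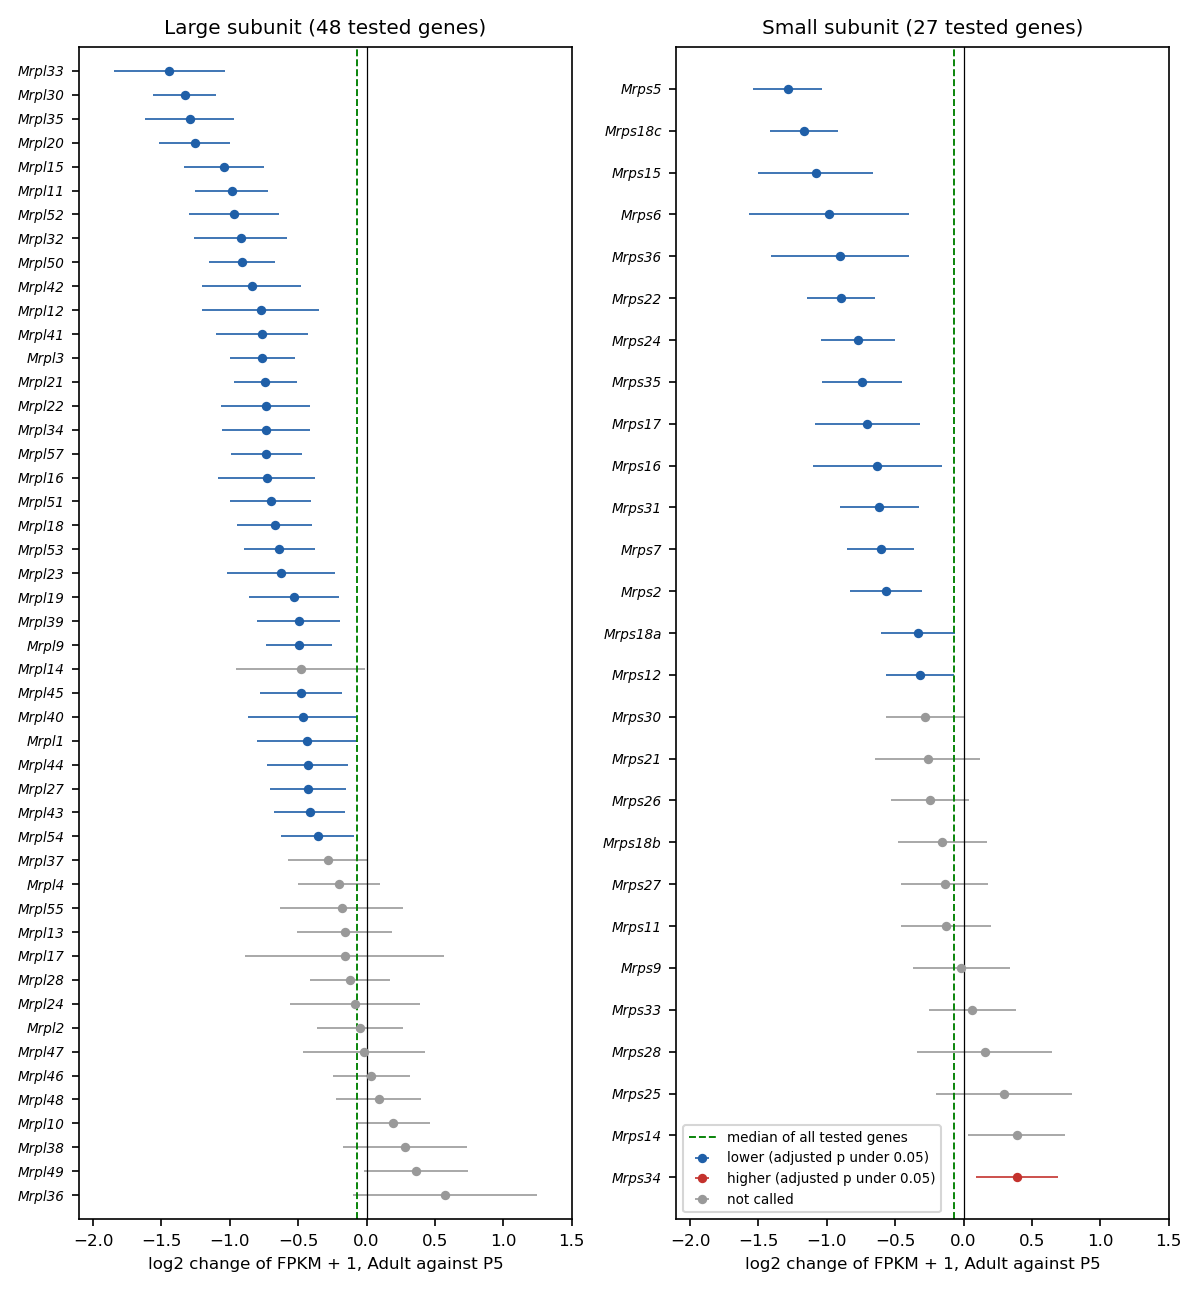
Log2 change of FPKM + 1 in Adult against P5 (horizontal axis) for each tested gene of the large subunit (left, 48) and small subunit (right, 27), with 95% intervals from limma. Blue genes fell, the red gene (Mrps34) rose on this scale but had a change of -0.32 on the TPM scale, grey genes were not called, and the dashed line marks the median of all tested genes at -0.07.

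Bacterial-type proteins of both subunits led the fall. Mrpl33, Mrpl30 and Mrpl35, descendants of bacterial large subunit proteins, had the lowest changes among the large subunit genes. Mrpl33 had 21.0 and 19.0 FPKM in Adult, against 65.8 and 47.5 FPKM at P5 (a 2.84-fold fall, log2 change -1.44, SE 0.17, limma adjusted p = 0.000655). Mrpl30 had 27.6 and 28.1 FPKM in Adult, against 72.4 and 70.8 FPKM at P5. Its 2 libraries of each age nearly coincide (a 2.57-fold fall, log2 change -1.33, SE 0.09, limma adjusted p = 0.000123). Mrpl35 had 3.22 and 3.46 FPKM in Adult, against 10.3 and 9.06 FPKM at P5 (log2 change -1.29, SE 0.13, limma adjusted p = 0.000427). The highly expressed Mrpl20, whose bacterial relative binds ribosomal RNA early in assembly, fell 2.43-fold (log2 change -1.26, limma adjusted p = 0.000216).

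Mrps5, Mrps18c and Mrps15, which have bacterial counterparts too, had the lowest changes in the small subunit. Mrps5 had 19.8 and 18.8 FPKM in Adult, against 47.5 and 49.5 FPKM at P5 (a 2.51-fold fall, log2 change -1.29, SE 0.10, limma adjusted p = 0.000189). Mrps18c had 15.3 and 15.0 FPKM in Adult, against 33.7 and 36.7 FPKM at P5 (log2 change -1.16, SE 0.10, limma adjusted p = 0.000239). For both genes the ages lay far apart in every library. Mrps15 had 16.4 and 15.3 FPKM in Adult, against 40.9 and 29.3 FPKM at P5 (log2 change -1.08, SE 0.17, limma adjusted p = 0.00237). Mrps12, a protein of the decoding centre, fell by 0.32 on the log2 scale (limma adjusted p = 0.0354), but its most abundant isoform alone gave a change of 0.99 (limma adjusted p = 0.0202).

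Mrps34, a small subunit protein specific to mitochondria, was the 1 member that rose. It had 20.2 and 17.9 FPKM in Adult, against 13.5 and 15.1 FPKM at P5 and 11.8 and 12.1 FPKM at E18. Its levels were higher at each later age without overlap (log2 change 0.39 against P5, SE 0.12, limma adjusted p = 0.0333; 0.63 against E18, SE 0.12, limma adjusted p = 0.0053). Leaving out 1 library at a time gave adjusted p-values between 0.0366 and 0.139 against P5 and between 0.0078 and 0.0444 against E18, and on the TPM scale the changes were -0.32 and 0.04. Exons of Mrps34 overlap those of Mapk8ip3 and Nme3, and Eme2, which starts 29 bases away, also rose against P5 (log2 change 0.95, limma adjusted p = 0.00308). The part of such neighbours in the level of Mrps34 was not tested.

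Proteins with a bacterial counterpart had lower medians than proteins specific to mitochondria in both subunits. Among 43 tested proteins with a bacterial counterpart 29 fell and 0 rose in Adult against P5, with a median log2 change of -0.63. Among 29 tested proteins specific to mitochondria 17 fell and 1 rose, with a median of -0.42. In the large subunit, by structure, the medians were -0.63 over 29 bacterial-type proteins and -0.45 over 20 specific ones. In the small subunit they were -0.62 over 14 bacterial-type proteins, of which 10 fell, and -0.16 over 9 specific ones, of which 3 fell and 1 rose. Mrps18a and Mrps18b, named for S18, were counted as specific, and Mrpl55, Mrps28 and Mrps36 were not classed. The median of the specific small subunit proteins is the value of Mrps18b itself. The difference between these classes was not tested.

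The 3 genes named for S18 form 1 small family. Mrps18a, whose protein sits in the large subunit in known structures, had 27.0 and 23.9 FPKM in Adult, against 31.9 and 32.6 FPKM at P5 (log2 change -0.33, SE 0.11, limma adjusted p = 0.0418). That call was lost under 9 of 17 alternatives. Mrps18b had 7.99 and 7.39 FPKM in Adult, against 9.23 and 8.15 FPKM at P5 (log2 change -0.16, interval -0.48 to 0.17), and was not called. Mrps18c, described above, changed most of these genes, and it is the one with the bacterial-type place in the small subunit.

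Some symbols do not name a small subunit protein in known structures. Mrps30, which also belongs to the large subunit, had 9.33 and 8.61 FPKM in Adult and 10.6 and 11.7 FPKM at P5, against 15.4 and 15.5 FPKM at E18. It fell in Adult against E18 (log2 change -0.72, SE 0.12, limma adjusted p = 0.00242), and neither step between neighbouring ages was called. Mrps36, now counted with the 2-oxoglutarate dehydrogenase complex of the tricarboxylic acid cycle, had 10.4 and 9.04 FPKM in Adult, against 23.7 and 15.3 FPKM at P5 (log2 change -0.90, SE 0.21, limma adjusted p = 0.0102). Its P5 libraries lay far from each other, and without Adult replicate 2 the adjusted p was 0.0723.

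Adult against E18 gave much the same count of calls. Of 75 tested members 41 fell (28 large, 13 small), 3 rose and 31 were not called. The share that fell, 54.7%, stood beside 34.4% of all tested genes, and 25.3% of all genes rose. Medians were -0.50 over the large and -0.43 over the small subunit, against -0.11 over all genes. Both Adult libraries lay below both E18 libraries in 51 members and above them in 11, against 47.0% and 37.1% of all genes. Both Adult comparisons share the Adult libraries, so their calls are not independent. Mrpl30 (log2 change -1.20), Mrpl52 (-1.19) and Mrpl34 (-1.15) had the lowest changes in the large subunit, and Mrps5 (-1.24), Mrps15 (-1.12) and Mrps18c (-0.88) in the small. The 13 small subunit genes that fell became 7 without either E18 library and 8 without Adult replicate 2. After scaling to the sum of protein-coding genes 14 large and 4 small subunit genes fell and 6 of each rose. On that scale 3340 of all 14390 tested genes fell and 5385 rose, so members fell at a share close to that of all genes.

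The members that rose against E18 were Mrps34, Mrpl10 and Mrps14. Mrpl10, which anchors the stalk that recruits translation factors, had 29.9 and 30.5 FPKM in Adult, against 22.7 and 22.8 FPKM at E18 (log2 change 0.39, SE 0.11, limma adjusted p = 0.0226). Mrps14 had 26.8 and 28.1 FPKM in Adult, against 20.2 and 17.7 FPKM at E18 (log2 change 0.51, SE 0.15, limma adjusted p = 0.023). Neither gene overlapped between these ages. On the TPM scale the changes were -0.20 and -0.08, and with 1 library left out the adjusted p reached 0.105 and 0.14.

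**Figure D3:**
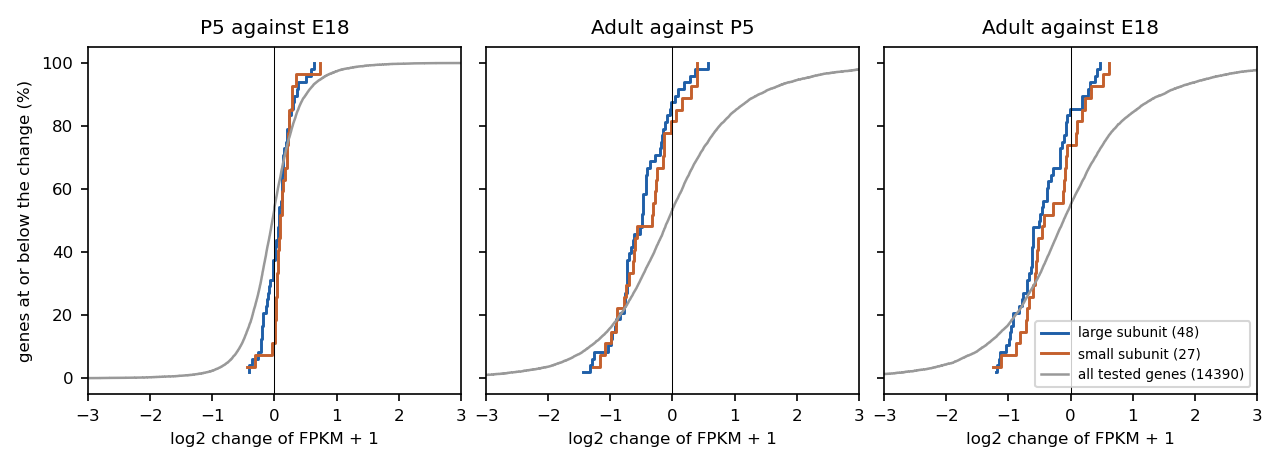
Share of genes at or below each log2 change of FPKM + 1 (horizontal axis, shown from -3 to 3) in the 3 comparisons, for 48 large subunit genes, 27 small subunit genes and all 14390 tested genes. In the P5 against E18 panel the subunit curves rise close to 0. In both Adult panels they cross the middle of the vertical axis left of the curve of all genes. With subunits by symbol, their medians against P5 are -0.50 and -0.33.

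Over all 3 ages the most frequent set of calls was lower in both Adult comparisons. In 38 of 75 members (27 large, 11 small) P5 against E18 was not called and both Adult comparisons were lower. Another 7 were lower in Adult against P5 alone, 3 (Mrpl14, Mrps21 and Mrps30) against E18 alone, and 22 were called in no comparison. Of all tested genes 33.7% fell in Adult against P5 and 34.4% in Adult against E18. The share of all genes with each set of calls was not counted, so these counts show no trait of the members alone. The call of Mrps21 against E18 was lost on leaving out any library of E18 or Adult (limma adjusted p between 0.084 and 0.096). Members without a call include Mrpl47, at 5.18 and 4.79 FPKM in Adult, against 5.98 and 4.24 FPKM at P5 (log2 change -0.02, interval -0.46 to 0.43), and Mrps27, at 9.28 and 8.57 FPKM in Adult, against 10.5 and 9.34 FPKM at P5 (log2 change -0.14, interval -0.45 to 0.18).

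The ratio of large to small subunit sums was slightly lower in Adult than at E18, while the sums themselves changed more. Large subunit genes summed to 1340 and 1360 FPKM at E18, then 1504 and 1316 at P5, and 948 and 916 FPKM once Adult. Small subunit genes summed to 595 and 599 FPKM at E18, then 681 and 605 at P5, and 456 and 450 FPKM once Adult. These sums go by symbol, so the small one includes Mrps18a, Mrps30 and Mrps36, described above. The ratio of large to small sums was 2.25 and 2.27 at E18, then 2.21 and 2.18 at P5, and 2.08 and 2.04 once Adult. This ratio was lower at each later age without overlap. With annotated isoforms alone it kept that order, between 2.03 and 2.07 in Adult, against 2.25 to 2.27 at E18. The sums carry the number of genes in each subunit, and a comparison of single genes gives less: the median log2 level of the large subunit minus that of the small was 0.52 and 0.38 at E18, then 0.29 and 0.37 at P5, and 0.40 and 0.37 once Adult, with overlapping ages. Members held 0.16% to 0.175% of all FPKM in Adult, against 0.396% to 0.442% at P5 and 0.356% to 0.369% at E18. These shares also carry the total of all genes, which was larger in Adult. It was 800500 and 854700 FPKM in Adult, against 495000 and 485400 FPKM at P5 and 524700 and 550800 FPKM at E18.

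**Figure D4:**
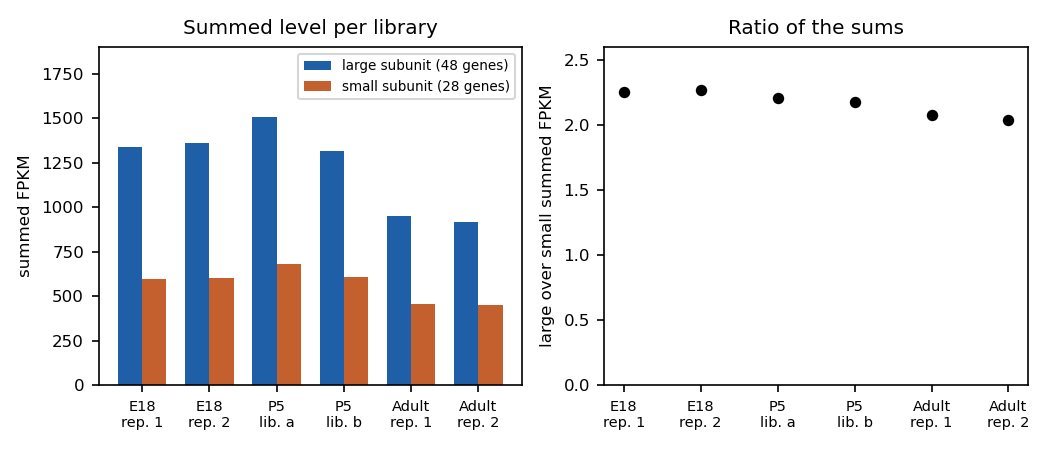
Left, summed FPKM of the 48 large and 28 small subunit genes in each library (bars from 0). Right, the ratio of those sums (points, axis from 0), which lies between 2.04 and 2.08 in the Adult libraries, against 2.25 to 2.27 in those of E18.

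Isoforms showed changes that gene sums hide. Of 199 tested isoforms of the 76 members, 67 fell and 14 rose in Adult against P5, against 24.1% and 19.2% of all 34941 tested isoforms. Without P5 library a 44 fell and 8 rose, leaving out either E18 library gave 7 higher, leaving out P5 library b or Adult replicate 2 gave 9 higher, and TPM gave 120 lower and 3 higher. At P5 against E18 1 rose and 0 fell (0.804% of all isoforms rose and 0.824% fell), the 1515-base form of Mrps31, with 14.3 FPKM at P5 and 7.14 FPKM at E18 (log2 change 0.91, SE 0.13, limma adjusted p = 0.0429). In Adult against E18 64 fell and 15 rose, against 26.8% and 17.9% of all isoforms. Those counts became 26 and 4 without E18 replicate 1, 29 and 1 without E18 replicate 2, and 110 and 3 with TPM, and 8 rose without Adult replicate 1. In Adult against P5, 10 genes had isoforms called in both directions. The share of all genes with such calls was not counted, so this is no trait of the members alone. Cufflinks estimates such levels from shared reads, and short forms are the least certain.

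Mrpl3, a descendant of bacterial L3, was the 1 member whose leading isoform changed between ages with both libraries of each age alike. Its 1394-base form had 4.14 and 5.07 FPKM in Adult, against 19.1 and 19.8 FPKM at P5 (log2 change -1.87, SE 0.15, limma adjusted p = 0.000553). Its 2309-base form had 8.77 and 8.26 FPKM in Adult, against 4.88 and 6.35 FPKM at P5 (log2 change 0.53, SE 0.17, limma adjusted p = 0.0456). The shorter form held 20.3% of the gene's FPKM in Adult, against 49.5% at P5, and the longer one 37.5% in Adult, against 14.2% at P5. In Mrpl33 the 478-base form fell (15.3 FPKM in Adult, against 55.1 FPKM at P5; limma adjusted p = 0.00116) while the 2741-base form rose (3.36 and 2.85 FPKM in Adult, against 1.11 and 1.01 FPKM at P5; limma adjusted p = 0.00912). In Mrps24 the 700-base form fell (3.21 and 5.04 FPKM in Adult, against 17.9 and 14.7 FPKM at P5; limma adjusted p = 0.00325) and the 995-base form was not called. The 380-base form of Mrps12 was listed at 0 in both Adult libraries, against 16.4 and 11.6 FPKM at P5. An exact 0 can be a failed estimate, and the sum of Mrps12 includes this form. The 501-base form of Mrpl30 had 0.252 and 0.00115 FPKM in Adult, against 9.17 and 5.94 FPKM at P5. The leading form also differed between ages in Mrpl30, Mrpl51, Mrps12, Mrps24 and Mrps34, but not alike in both libraries of each age.

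**Figure D5:**
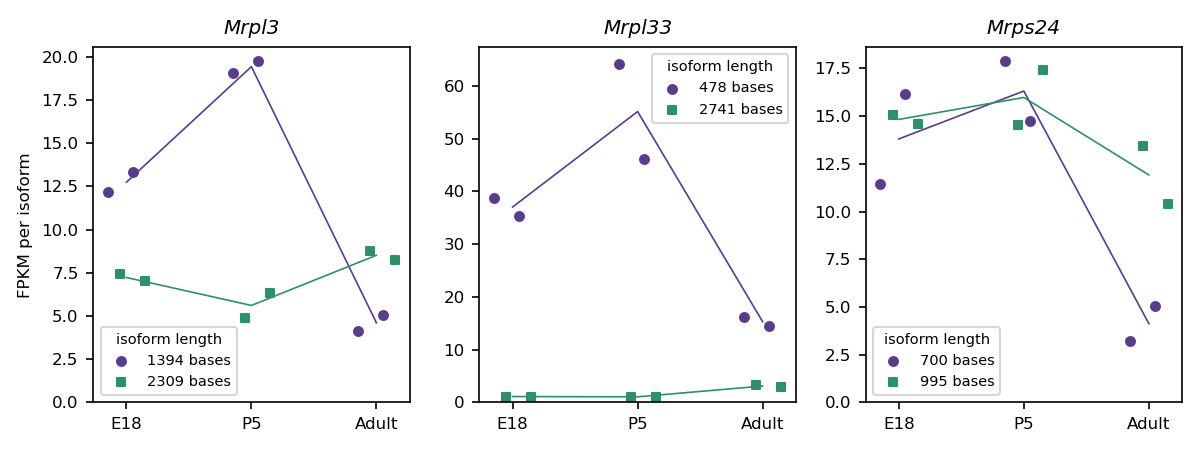
FPKM of a shorter isoform (circles) and a longer one (squares) of Mrpl3, Mrpl33 and Mrps24 at E18, P5 and Adult, 2 libraries each, with lines through the means. The shorter form is below its P5 level in every Adult library, and the longer forms of Mrpl3 and Mrpl33 are above theirs.

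Some neighbours that start within 1000 bases of a member on the opposite strand were called with it and others were not. Of 28 members with a tested partner, 15 fell in Adult against P5, and their partners fell in 4 cases, rose in 3 and were not called in 8, where 33.7% of all tested genes fell and 26.2% rose. In Adult against E18 13 fell, and their partners fell in 7 cases, rose in 2 and were not called in 4, where 34.4% of all genes fell and 25.3% rose. Beside Mrpl30, which fell in both comparisons, Mitd1 was not called against P5 (log2 change 0.29, limma adjusted p = 0.15). Against E18 Mitd1 rose (log2 change 0.52, limma adjusted p = 0.027). Mrps12 fell against P5 but was not called against E18. Beside it rose Sars2, the mitochondrial seryl-tRNA synthetase (log2 change 0.77 against P5, limma adjusted p = 0.00366). The most abundant isoform of Mrps12 alone had a change of 0.99 against P5. Beside Mrpl18, which fell by 0.67 on the log2 scale against P5, Tcp1, a subunit of the cytosolic chaperonin, fell too (log2 change -1.18, limma adjusted p = 0.000256).

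Transcripts of the members were short, with a median FPKM-weighted length of 1180 bases against 2455 bases over all tested genes. Among the 10 members under 700 bases the median log2 change in Adult against P5 was -0.69, against -0.16 over 1407 genes of that length. Among the 18 members of 700 to 1000 bases it was -0.68, against -0.33 over 813 such genes. Among the 23 members of 1000 to 1500 bases it was -0.25, against -0.17 over 1599 such genes. Among the 24 members of 1500 bases or more it was -0.51, against -0.03 over 10571 such genes.

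Other genes of mitochondrial translation had calls in both directions in Adult against P5. Counts for these and the following lists come from the deposited FPKM scale alone, on which 33.7% of all tested genes fell and 26.2% rose. Among 6 tested mitoribosome proteins with other symbols, Chchd1 fell (19.4 and 22.0 FPKM in Adult, against 53.6 and 47.1 FPKM at P5; limma adjusted p = 0.000297), Gadd45gip1 rose (13.5 and 13.7 FPKM in Adult, against 8.54 and 8.13 FPKM at P5; limma adjusted p = 0.00359), and so did Aurkaip1 (limma adjusted p = 0.0285). Of 12 translation factors 2 fell and 0 rose: Tufm, the elongation factor that brings aminoacyl-tRNA, and Mtif3, an initiation factor. Tufm had 17.1 and 15.5 FPKM in Adult, against 29.7 and 22.2 FPKM at P5 (log2 change -0.63, limma adjusted p = 0.0136). Of 28 assembly factors 9 fell and 3 rose, with Rbfa, which matures the small subunit, at 4.74 and 3.74 FPKM in Adult, against 11.9 and 13.3 FPKM at P5 (log2 change -1.38, limma adjusted p = 0.000625), and Gtpbp10, a GTPase of large subunit assembly, at -0.91 (limma adjusted p = 0.0027). None of these 3 lists had a call between P5 and E18.

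Genes that feed the system with RNA showed calls in both directions. Of 17 genes of mitochondrial transcription and RNA handling 6 fell and 1 rose in Adult against P5, beside 33.7% and 26.2% of all tested genes. Hsd17b10, a subunit of mitochondrial RNase P, had a log2 change of -1.33 (limma adjusted p = 0.00401) and Tfb2m, a transcription factor of mitochondrial DNA, one of -0.68 (limma adjusted p = 0.00429). Between P5 and E18 1 of them fell: Trmt10c, another subunit of RNase P, at 6.59 and 7.80 FPKM at P5, against 11.7 and 12.3 FPKM at E18 (limma adjusted p = 0.0362). Of 17 mitochondrial aminoacyl-tRNA synthetases 2 fell and 4 rose in Adult against P5, with Hars2 (histidine) at -0.66 (limma adjusted p = 0.00223) and Sars2 as above. Of 10 tested mitochondrially encoded proteins, 4 (mt-Nd3, mt-Co3, mt-Atp6 and mt-Atp8) were listed at 0 in both Adult libraries. An exact 0 can be a failed estimate, so no direction is given for them. Of the other 6, 2 fell and 3 rose in Adult against P5. At P5, mt-Co3 and mt-Atp6 rose against E18, where 5.52% of all tested genes rose and 4.95% fell.

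Import and energy genes gave a background from the rest of the organelle. Of 22 genes of the outer membrane and of protein import 16 fell and 1 rose in Adult against P5, beside 33.7% and 26.2% of all tested genes, with a median log2 change of -0.51. Vdac3, an outer membrane channel, had 57.5 and 58.4 FPKM in Adult, against 198 and 161 FPKM at P5 (log2 change -1.61, limma adjusted p = 0.000202), and Tomm22, an import receptor, fell as well (log2 change -1.14, limma adjusted p = 0.000216). At P5 against E18, 2 genes of that list rose, beside 5.52% of all tested genes: Timm17a (limma adjusted p = 0.0394) and Tomm20 (limma adjusted p = 0.0428). Of 20 genes of the tricarboxylic acid cycle 11 fell and 2 rose in Adult against P5, with citrate synthase (Cs) at -1.62 (limma adjusted p = 7.23e-05) and Sdha at 1.21 (limma adjusted p = 0.000201). At P5, 5 of those 20 rose against E18, beside 5.52% of all tested genes, Idh3a most clearly (log2 change 0.95, limma adjusted p = 0.0154), and Idh2 fell. Of 5 other listed genes of the inner membrane Ghitm rose (limma adjusted p = 0.00729) and Cox18 fell (limma adjusted p = 0.0113).

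Regulators of mitochondrial biogenesis had calls in both directions. Of 10 tested genes 5 rose and 1 fell in Adult against P5, beside 26.2% and 33.7% of all tested genes. In Adult against E18 3 rose and 4 fell, beside 25.3% and 34.4% of all tested genes. Myc, a transcription factor that promotes ribosome production, had 0.343 and 0.276 FPKM in Adult, against 6.55 and 6.89 FPKM at P5 (log2 change -2.56, limma adjusted p = 6.7e-05). Esrra, a nuclear receptor of energy metabolism, had 19.9 and 22.5 FPKM in Adult, against 6.58 and 7.82 FPKM at P5 (log2 change 1.44, limma adjusted p = 0.000296). Sp1 and Myc fell at P5 against E18, where 4.95% of all tested genes fell. These values stand beside the shift in cell type markers given above, whose part in them was not tested.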

How the data were processed

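The authors deposited 1 table of isoform FPKM for 6 libraries. Per the submitters' processing notes, reads were mapped with HISAT2 to mm10 and quantified with Cufflinks and Cuffdiff. Versions, strand setting and any scaling between libraries are not given in the sources used here, and neither are read counts, so depth and counting error are unknown and precision rests on 2 libraries per age. The value 0.0001 stands for 0. The P5 columns share 1 header, so those libraries are called a and b. A further 9 columns of per-sample values were not used.

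Isoform FPKM were summed per gene, and genes or isoforms with a mean of at least 1 FPKM were fitted as log2(FPKM + 1) with limma 3.58.1 in R 4.3.3 (age as factor, all 6 libraries, variance trend; 3 residual and 3.26 prior degrees of freedom for genes). This scale understates the change of low genes. Two-sided p-values were adjusted over all 14390 genes or 34941 isoforms (Benjamini-Hochberg), and an adjusted p under 0.05 made a call. The fit was tested on simulated data. Named members are the 3 largest calls per subunit, direction and comparison, calls against the majority, the highest and lowest levels, the S18 genes, Mrps30 and Mrps36; Mrpl46, Mrps11, Mrpl18, Mrps12, isoform examples and neighbours beside them were chosen after their values were seen, and other lists name the 2 smallest p-values. The members, the lists and this rule were chosen with earlier results of these data known. Cytosolic ribosomal protein genes were taken by symbol without pseudogenes and paralogues.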

Additional observations from a re-analysis of the deposited data

How the results depend on the processing

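Alternatives were a pseudocount of 0.1, no filter, a minimum of 5 FPKM, 4 scalings, annotated or leading isoforms alone, no variance trend, fits with the libraries of a comparison alone, and each library left out. The 3 members with the lowest changes in each subunit kept their direction in all of them in both Adult comparisons. In P5 against E18 the count of large subunit genes called higher was 0 with no filter, equal medians, quantile normalization, annotated isoforms only, the most abundant isoform, no variance trend and the libraries of the comparison alone, and 2 with TPM. TPM also gave 2 small subunit genes called higher, 3 isoforms higher and 1 lower. Of all 14390 tested genes, 1478 were higher and 470 lower with TPM. With 1 library left out, large, small and isoform counts of higher calls ranged from 0 to 1, from 0 to 1 and at 0, with 0 lower.

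In Adult against P5, large subunit genes called higher numbered 2 with quantile normalization and 6 with the protein-coding sum, which left 20 lower. Small subunit genes called higher numbered 0 with TPM and with the libraries of the comparison alone, 2 with quantile normalization and 3 with the protein-coding sum. Those called lower numbered 23 with TPM and 8 with the protein-coding sum. Isoforms (67 lower and 14 higher) gave 120 lower and 3 higher with TPM. With 1 library left out, higher calls ranged from 0 to 1 in each subunit, lower calls from 24 to 33 (large) and from 11 to 15 (small), and isoforms from 7 to 10 higher and from 44 to 60 lower.

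In Adult against E18, large subunit genes called higher numbered 0 with TPM, 3 with quantile normalization, 6 with the protein-coding sum, and 2 with a minimum of 5 FPKM, equal medians, the libraries of the comparison alone and a replicate block; 14 were lower with the protein-coding sum. Small subunit genes called higher numbered 0 with TPM and 6 with the protein-coding sum, and those called lower 23 with TPM and 4 with the protein-coding sum. With TPM 8126 of all 14390 tested genes fell and 2048 rose. Isoforms (64 lower and 15 higher) gave 110 lower and 3 higher with TPM. With 1 library left out, higher calls ranged from 0 to 2 (large) and from 1 to 2 (small), lower calls from 20 to 30 and from 7 to 13, and isoforms from 1 to 14 higher and from 26 to 62 lower. The replicate block, with 28 large and 13 small subunit genes lower, rests on shared numbers alone, since deviations of E18 replicate 1 and Adult replicate 1 correlated at 0.018; P5 columns carry no numbers.

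The median change of the large subunit minus that of the small was -0.16 in Adult against P5 and became -0.029 with the most abundant isoform, -0.044 with classes by structure and -0.0795 as a mean. Against E18 it was -0.07 and became -0.15 with no filter, -0.14 with quantile normalization, -0.16 with the most abundant isoform and -0.23 with classes by structure. With 1 library left out it ranged from -0.18 to -0.13 against P5, from -0.13 to -0.06 against E18, and from -0.08 to -0.04 in P5 against E18 (-0.02 with all). Among members called on either scale, TPM turned the sign in Adult against P5 for Mrpl10 (-0.54), Mrpl46 (-0.67), Mrpl48 (-0.64), Mrps33 (-0.64) and Mrps34 (-0.32), and against E18 for Mrpl2 (-0.41), Mrpl10 (-0.20), Mrps9 (-0.50), Mrps14 (-0.0805), Mrps31 (-0.45) and Mrps33 (-0.39). The most abundant isoform turned it for Mrps12 against P5 (0.99) and Mrps9 against E18 (-0.44). The cause of these shifts was not tested.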

Other observations

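The pseudogene symbols were listed at low levels. Mrpl23-ps1 had 0.356 and 0.228 FPKM in Adult, against 3.34 and 2.30 at P5 and 2.90 and 2.40 at E18, and it fell in both Adult comparisons. Mrpl48-ps stayed between 1.94 and 2.59 FPKM in all libraries, and Mrps36-ps2 between 0.453 and 1.63 FPKM. Neither was called in any comparison. Reads of such copies may be shared with their parent genes, and how many were shared was not measured.

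Lars2, the mitochondrial leucyl-tRNA synthetase, stood far outside its family and was singled out after its values were seen. It had 10877 and 3327 FPKM in Adult, against 457 and 33.7 at P5 and 289 and 193 at E18, so that libraries of 1 age differed by large factors. Isoforms that match no annotated transcript held 1.34% to 1.9% of the members' FPKM in any library.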
